A study of Mus musculus with 2 samples.

Results

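The collagen genes of the mouse eye cup were the 42 genes whose platform symbol has the form Col, digits, a, digits, out of 18193 genes with a probe set that carries a single symbol. Each gene took the value of 1 probe set, the one with the highest mean of both arrays among its 1 to 4 probe sets, and 82 probe sets were read in all. By the type of assembly their proteins form, 11 genes were fibrillar, 9 of basement membranes, 9 fibril-associated and 13 of other kinds. A gene counted as measured when at least 1 of its values reached the median of that array (93.4 on the array labelled knockout and 94.2 on the wild-type array). In this sense 31 of the 42 collagen genes and 11568 of all genes were measured.

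The series holds 2 Affymetrix Mouse 430 2.0 arrays of total RNA from eye cups at postnatal day 13. One is labelled Mfsd2a KO and the other wild-type, and each is a pool of equal amounts of RNA from 6 animals. Eye cups comprise retina, pigment epithelium, choroid and sclera, the parts left once cornea, lens and optic nerve have been taken off. The labels give no strain, no sex and no description of the deleted part of Mfsd2a, which encodes a membrane transporter of lysophosphatidylcholine. All values below are intensities of a single array per genotype, and each difference is log2 of the array labelled Mfsd2a KO minus log2 of the wild-type array. Mfsd2a itself read 244 on the array labelled KO and 181 on the wild-type array in its 1 probe set, against the direction of the label, and whether that set lies in the deleted part was not analysed here, so each direction below rests on the label. With 1 array per genotype no test could be made, and the genotype cannot be told apart from the sexes of the pooled animals, the dissection or the handling of the arrays. Levels of different probe sets are not comparable with each other, so comparisons are of the same probe sets on both arrays.

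Collagens are extracellular proteins built of alpha chains wound into a triple helix. Fibrillar collagens such as types I, III and V carry the tensile strength of sclera and choroid. Types II, IX and XI form thin mixed fibrils in cartilage and in the vitreous, the gel that borders the retina. Type IV makes the sheet-like network of basement membranes, among them the inner limiting membrane, Bruch's membrane and the walls of vessels. Fibril-associated collagens coat fibrils made by others, and further types form filaments, hexagonal lattices or span the cell membrane.

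Most measured collagens differed by less than 1.2-fold between the arrays, but a smaller share lay close to 0 than of all measured genes. In whole tissue such values cannot tell fewer cells of a type from less RNA per cell. The median log2 difference of the 31 measured collagens was 0.021, beside 0.014 for all measured genes. Above 0 were 16 collagens, or 51.6%, against 55.8% of all measured genes, and 14 were below 0, against 42.4%. Within 0.1 log2 units either way lay 17 of the 31, or 54.8%, whereas 71.3% of all measured genes did. At the size used here for counting, 1.2-fold, 3 collagens were higher on the array labelled KO (Col17a1, Col5a3 and Col4a3), beside 1.79% of all measured genes. None was at least 1.2-fold lower, beside 1.17% of all measured genes.

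The count of 3 depended on the floor, the choice of probe set and the scaling. Col17a1 reached the floor only on the array labelled KO, where it was high, so it could enter the count only by differing. Among the 30 collagens above the floor on both arrays 2 were at least 1.2-fold higher, beside 1.54% of all such genes. When all probe sets of a gene were averaged the count was 1, beside 1.4% of all genes so measured. Col5a3 was then below the floor and Col4a3 stood at 0.15. Under a higher floor, the 70th percentile of each array, the count was 0, beside 1.17%. Col17a1, Col5a3 and Col4a3 all lay below that floor. With no floor the count was 4, beside 2.23%. Col4a3, close to the size counted, was lost under each of 3 scalings, which left a count of 2: removal of a trend with level (0.26, beside 1.68% of all measured genes), 16 added to intensities before logs (0.25, beside 1.49%) and subtraction of the overall median (0.26, beside 1.55%). At 1.3-fold and at 1.5-fold Col17a1 was the 1 collagen that was higher, beside 0.64% and 0.138% of all measured genes, and at 2-fold there was none, beside 0.0346%. Lower collagens numbered 0 at each of these sizes, beside 0.311% of all measured genes at 1.3-fold, 0.0864% at 1.5-fold and 0% at 2-fold, and 0 with the floor on both arrays, beside 0.989%. With no floor 1 collagen, Col19a1, was at least 1.2-fold lower, beside 3.38% of all genes.

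**Figure D1:**
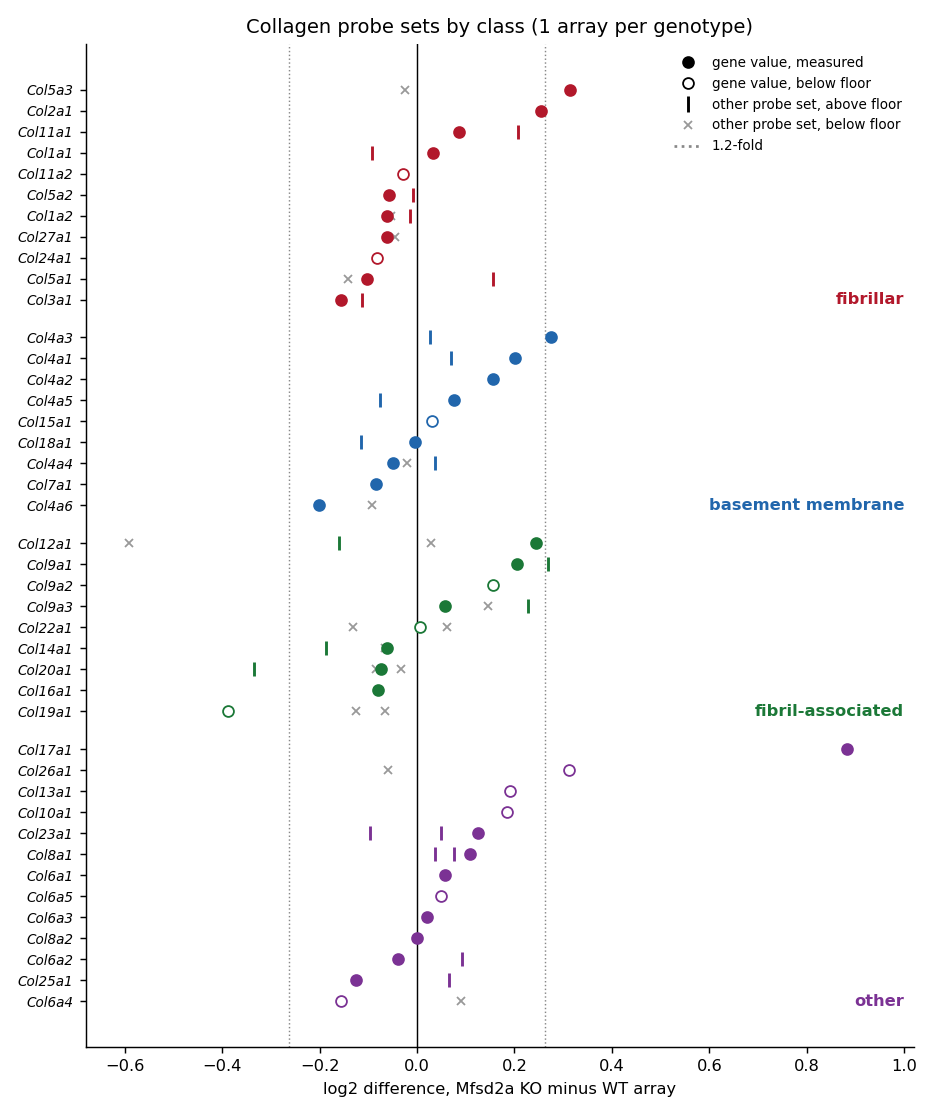
Log2 difference, Mfsd2a KO minus WT, of each of the 82 collagen probe sets, in rows by gene and in blocks by class. Filled circles are the values used for measured genes, open circles those of genes below the floor, bars and crosses the remaining probe sets above and below the floor, and dotted lines mark 1.2-fold. Col17a1 stands apart at 0.88, and several genes have probe sets on both sides of 0.

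The difference furthest from 0 belonged to Col17a1, a transmembrane collagen of hemidesmosomes that anchors epithelial cells to their basement membrane. Its only probe set read 128 on the array labelled KO, against 69.7 on the wild-type array, a log2 difference of 0.88 or 1.84-fold. The wild-type value lay under the floor, and RMA shrinks dim values, so the size is uncertain. With 16 added to both intensities before taking logs it was 0.75.

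Other hemidesmosome genes were not higher alongside it as a group. Of the 6 measured partners on the list, 1 was above 0 and 5 were below, with a median of -0.17. Itga6, an integrin chain of the same junction, was the higher one, at 332 on the array labelled KO and 280 on the wild-type array (0.25). The linkers Plec (-0.041) and Dst (-0.16) and the tetraspanin Cd151 (-0.19) were below 0. Krt14 and Krt5, keratins of basal epithelial cells, differed by -0.56 and -0.33, and both are also among the corneal and conjunctival markers given next. Itgb4, the integrin chain that pairs with Itga6, was below the floor at 56.9 on the array labelled KO and 51.4 on the wild-type array. Markers of corneal and conjunctival epithelium, where Col17a1 is abundant, were all below 0 in the 8 members measured (median -0.36), and their summed intensity was 3581 on the array labelled KO and 3972 on the wild-type array. Pax6, which retina also expresses, made up most of that sum, and without it the 7 others summed to 1290 labelled KO and 1648 wild-type. Krt12, the keratin that defines corneal epithelium, read 178 labelled KO and 192 wild-type. Lens markers had a median of 0.21, with 8 of 10 measured members above 0 and a sum over these 10 of 4719 labelled KO and 4154 wild-type. All measured lens markers but Bfsp2 were crystallins. Among them the crystallin Cryga read 242 labelled KO and 184 wild-type (0.40), and Cryaa 533 labelled KO and 418 wild-type (0.35). The part of either tissue in the Col17a1 value was not tested.

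The promoter of Col17a1 is shown because this gene stands apart from all the other collagens. It is the RefSeq window on build GRCm38.p6, chr19:47691993-47692292, minus strand, from 250 bases before to 50 after the annotated start. Capitals mark matches, on either strand, to the TATA box (TATAAA), to the CCAAT box (these same letters), to the GC box (GGGCGG) and to the core of a sterol regulatory element (TCACNCCAC).
Col17a1: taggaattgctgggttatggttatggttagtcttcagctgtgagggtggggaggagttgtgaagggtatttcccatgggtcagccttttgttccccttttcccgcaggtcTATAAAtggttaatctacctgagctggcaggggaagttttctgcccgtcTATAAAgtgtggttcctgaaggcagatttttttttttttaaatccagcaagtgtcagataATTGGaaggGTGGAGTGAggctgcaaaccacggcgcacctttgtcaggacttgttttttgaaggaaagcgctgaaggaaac
The window held a TATA box at 2 places, a CCAAT box and a sterol element once each on the reverse strand, and no GC box. Of all 32851 windows in the table, 13.6% hold a TATA box, 37.4% a CCAAT box, 35.7% a GC box and 1.24% the sterol element. Among 36 windows of 33 collagen genes, 5 hold a TATA box, 13 a CCAAT box, 22 a GC box and 2 the sterol element. These are matches of letters only, and no motif overlapped another in the windows shown.

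Among basement membrane collagens 8 of 9 genes were measured, with 4 above and 4 below 0 and a median of 0.036, or -0.00023 when probe sets were averaged. The network chains of type IV made up 6 of them. Col4a1, the alpha 1 chain found in nearly all basement membranes, read 840 on the array labelled KO and 731 on the wild-type array (0.20). Its partner Col4a2 read 549 on the array labelled KO and 493 on the wild-type array (0.16). Both chains of this most widespread trimer were thus slightly higher on the array labelled KO, although the second probe set of Col4a1 differed by only 0.070 (261 labelled KO and 248 wild-type).

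The chains of the more specialised type IV networks shared no settled direction. Col4a3 read 208 on the array labelled KO and 172 on the wild-type array, a difference of 0.27 or 1.21-fold, and its second probe set 133 and 131 in the same order (0.026). Col4a4, with which it assembles, read 300 on the array labelled KO and 311 on the wild-type array (-0.049), and in its second probe set 207 labelled KO and 202 wild-type (0.038). Col4a5 differed by 0.076 and -0.076 in its probe sets above the floor, so it has no settled direction. Col4a6, which assembles with Col4a5, was the lowest of all measured collagens, at 96.7 on the array labelled KO and 111 on the wild-type array (-0.20). Mutations of the alpha 3, 4 and 5 chains cause Alport syndrome in humans, with changes of the eye as well as of kidney and ear.

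The type IV genes lie head to head as neighbours on their chromosomes, Col4a1 with Col4a2 on chromosome 8, Col4a3 with Col4a4 on chromosome 1 and Col4a5 with Col4a6 on X, with 0 coding genes between them in the RefSeq order. In the chosen probe sets the genes of the first pair differed in the same direction, while those of the other pairs did not, and the second set of Col4a4 went the way of Col4a3. The start regions of the first pair are shown because these neighbours read alike and share sequence. They are RefSeq windows on GRCm38.p6, chr8:11312777-11313076 on the minus strand for Col4a1 and chr8:11312555-11312854 on the plus strand for Col4a2, with capitals as above.
Col4a1: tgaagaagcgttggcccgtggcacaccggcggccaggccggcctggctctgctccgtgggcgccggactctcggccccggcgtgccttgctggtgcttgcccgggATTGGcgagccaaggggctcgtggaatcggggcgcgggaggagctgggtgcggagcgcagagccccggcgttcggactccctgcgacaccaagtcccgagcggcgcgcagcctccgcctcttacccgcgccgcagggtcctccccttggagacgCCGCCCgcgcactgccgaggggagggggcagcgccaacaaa
Col4a2: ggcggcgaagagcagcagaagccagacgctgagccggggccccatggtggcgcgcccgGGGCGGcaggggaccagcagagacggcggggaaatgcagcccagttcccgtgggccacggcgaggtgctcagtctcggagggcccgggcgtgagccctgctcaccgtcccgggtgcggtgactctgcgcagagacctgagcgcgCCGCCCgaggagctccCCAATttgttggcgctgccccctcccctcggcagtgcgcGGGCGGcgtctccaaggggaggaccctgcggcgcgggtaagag
The windows overlap by 78 bases, read on opposite strands. Col4a1 held a CCAAT box and a GC box once each, Col4a2 held a CCAAT box once and a GC box at 3 places, and neither held a TATA box or the sterol element. The GC box of Col4a1 and the last one of Col4a2 are the same site, in the overlap. G and C made up 74.0% of the bases for Col4a1 and 73.7% for Col4a2, beside 46.3% for Col17a1.

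The remaining basement membrane collagens were Col18a1, Col7a1 and Col15a1. Col18a1, whose C-terminal fragment endostatin inhibits vessel growth, read 502 on the array labelled KO and 503 on the wild-type array, and -0.11 in its second probe set. Col7a1, the anchoring fibril collagen, differed by -0.085 at intensities just above the floor (95.6 labelled KO and 101 wild-type). Col15a1, which is related to Col18a1, was below the floor. The list of other basement membrane proteins, with 10 of 16 genes measured, had 6 above and 4 below 0 and a median of 0.044. In it Agrn, the proteoglycan agrin, differed by 0.19, Hspg2, perlecan, by -0.14, and the laminin chain Lama2 by -0.15, while Lamb1 stood at -0.0087. The lens capsule is rich in collagen IV, and the walls of vessels hold it too. Medians of the markers lay on opposite sides of 0, at 0.21 over 10 lens genes and -0.060 over 11 endothelial genes. All measured lens genes but Bfsp2 (-0.11) were crystallins. The part of lens or endothelium in the collagen IV values was not tested.

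Fibrillar collagens had a median of -0.059 over 9 measured genes of 11, with 4 above and 5 below 0. Col1a1 and Col1a2, whose products form collagen I, the main fibril of sclera, read 1154 and 4398 on the array labelled KO, against 1128 and 4589 on the wild-type array, differences of 0.032 and -0.061. The second probe set of Col1a1 differed by -0.093 and that of Col1a2 by -0.014. Neither chain of collagen I therefore differed by as much as 0.1 in any probe set above the floor. Col3a1, which forms fibrils with collagen I in pliable tissue, was lower on the array labelled KO in both probe sets, at 2274 labelled KO and 2533 wild-type (-0.16) and at 205 labelled KO and 222 wild-type (-0.11).

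Collagen V starts and limits the fibrils of collagen I, and its chains shared no direction. Col5a3 read 148 on the array labelled KO and 119 on the wild-type array, a difference of 0.31 or 1.24-fold, while its other probe set, at about 21 on both arrays and so below the floor, differed by -0.024. Col5a2 read 374 labelled KO and 390 wild-type (-0.059), with -0.0077 in its second probe set. Col5a1 had no settled direction, with -0.10 in the chosen set (116 labelled KO and 124 wild-type) and 0.16 in another (115 labelled KO and 103 wild-type). Of the less studied fibrillar chains, Col27a1 differed by -0.062, and Col24a1 was below the floor.

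Collagens II, IX and XI, which share fibrils in vitreous and cartilage, were grouped across classes after their values were seen, so a shared direction is a description only. All 4 measured genes of the 6 were higher on the array labelled KO, in each of their 7 probe sets above the floor, with a median of 0.15. Col2a1, the core chain, read 579 on the array labelled KO and 486 on the wild-type array (0.25, or 1.19-fold) in its only probe set. Col9a1, the collagen IX chain on the fibril surface, read 3291 labelled KO and 2855 wild-type (0.20), and 937 labelled KO and 778 wild-type in its second probe set (0.27). Col9a3 differed by 0.057 and 0.23 in its probe sets, and Col11a1, a chain that sets fibril width, by 0.087 and 0.21. In Col9a3 and Col11a1 the probe sets lay further apart than the size of the smaller difference.

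The other members of these trimers were below the floor. Col9a2 read 58.2 on the array labelled KO and 52.3 on the wild-type array (0.16), and Col11a2 51.9 labelled KO and 53.0 wild-type (-0.029). Cartilage markers were mostly below the floor too, with 2 of 9 measured: Sox9, a transcription factor that drives Col2a1 in chondrocytes and is also made in retinal glia, differed by -0.048 and Cnmd, chondromodulin, by -0.038. Markers of ciliary body and iris, where part of the vitreous collagen is made, had a median of -0.061 over 4 measured genes. Optc, a vitreous proteoglycan, was at 185 on the array labelled KO and 233 on the wild-type array (-0.33), opposite to the collagens it binds. Mueller glia and astrocyte markers had a median of 0.015 over 6 genes, with Slc1a3 at 0.21, Vim at 0.16 and Glul at -0.041.

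**Figure D2:**
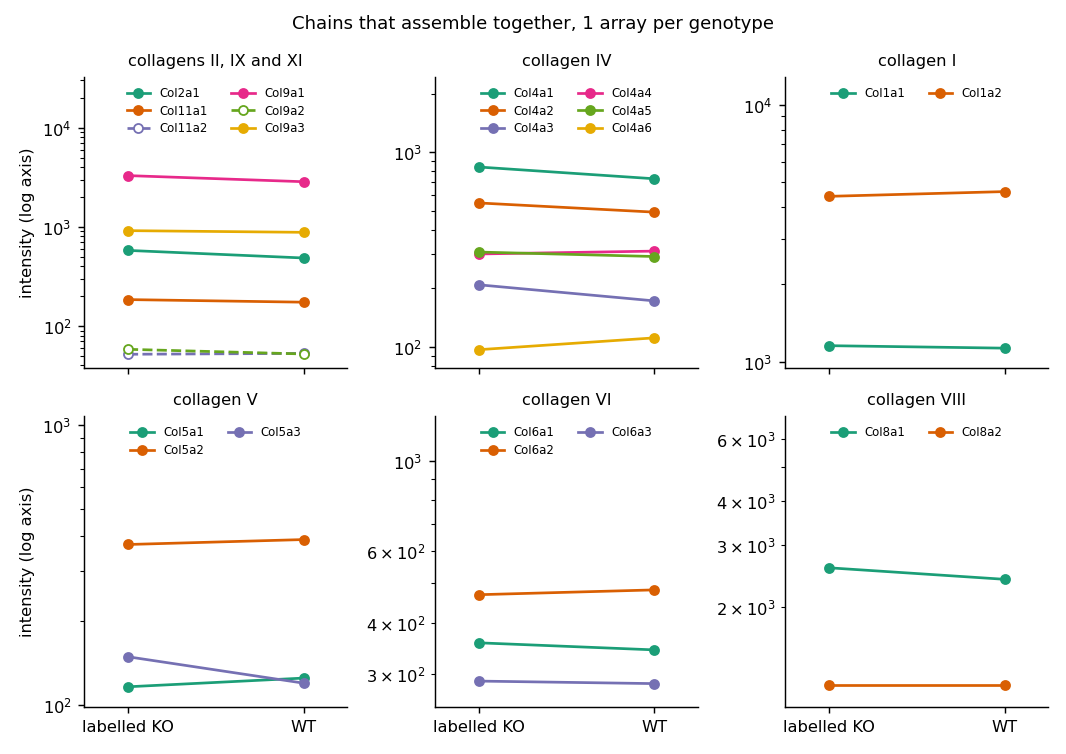
Intensity on a log axis of chains that assemble together, with the array labelled Mfsd2a KO on the left and the wild-type array on the right of each panel. Each line joins the 2 values of 1 gene, and open points with dashed lines are genes below the floor. The measured chains of collagens II, IX and XI slope downwards towards wild type, as Col1a1 does slightly (0.032), while Col1a2 slopes upwards (-0.061).

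Of the fibril-associated collagens 6 of 9 were measured, 3 above and 3 below 0, and the median was -0.0024. It was 0.13 under the floor at the 70th percentile and 0.14 when probe sets were averaged, settings that leave fewer members measured. The higher floor left only Col9a1 and Col9a3, and averaging left these and Col16a1. The measured member furthest from 0 was Col12a1, which coats fibrils of collagen I, at 234 on the array labelled KO and 198 on the wild-type array (0.24). Its second probe set went the other way, at 87.0 labelled KO and 97.3 wild-type (-0.16). That set reached the floor only on the wild-type array, where it was high, so the floor favoured its sign. The gene therefore has no settled direction. Col14a1, a relative of Col12a1, differed by -0.061 and -0.19 in its probe sets above the floor, and Col16a1 by -0.081. The second set of Col14a1 too reached the floor only on the wild-type array (90.3 labelled KO and 103 wild-type).

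Col20a1 differed by -0.074 in its chosen probe set, a set of the _s_at kind that may bind other transcripts. Another probe set read 89.6 on the array labelled KO and 113 on the wild-type array (-0.33), past 1.2-fold. It reached the floor only on the wild-type array, where it was high, so it could be counted only by differing. With _s_at and _x_at sets left out it made Col20a1 the 1 measured collagen at least 1.2-fold lower, beside 1.21% of all genes so measured. Over all 53 collagen probe sets above the floor, 4 were at least 1.2-fold higher, beside 1.85% of all named probe sets above the floor, and 1 was at least 1.2-fold lower, beside 1.15%. The 4 were those of Col17a1, Col5a3 and Col4a3 and the second of Col9a1, and the 1 was this set of Col20a1. The set of Col17a1 reached the floor only on the array labelled KO. Col19a1 differed by -0.39 at 64.0 labelled KO and 83.7 wild-type, but lay below the floor in all 3 probe sets, and Col22a1, known from the junction of muscle and tendon, was at 51.9 labelled KO and 51.7 wild-type.

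The other collagens comprised filament, lattice and transmembrane types, with 8 of 13 measured and a median of 0.039. Collagen VI forms beaded filaments around cells from the products of Col6a1, Col6a2 and Col6a3. These differed by 0.058, -0.039 and 0.021, and the second set of Col6a2 by 0.092, so all 3 stayed within 0.1. Collagen VIII, a lattice collagen best known from Descemet's membrane of the cornea, is made from Col8a1 and Col8a2. Col8a1 read 2579 on the array labelled KO and 2391 on the wild-type array (0.11), with its other probe sets at 0.038 and 0.076, and Col8a2 read 1195 on both arrays.

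Transmembrane collagens other than Col17a1 differed little. Col23a1 read 526 on the array labelled KO and 482 on the wild-type array (0.13), but its 3 probe sets ran from -0.096 to 0.13. Col25a1, which developing muscle needs to receive motor axons, read 179 labelled KO and 195 wild-type (-0.13), and 0.066 in its second set. Skeletal muscle markers had a median of -0.22 over 8 genes, and their part in the Col25a1 value was not tested. Below the floor were Col13a1 (46.6 labelled KO and 40.8 wild-type), Col10a1 of hypertrophic cartilage (40.7 labelled KO and 35.8 wild-type), Col26a1 (91.7 labelled KO and 73.9 wild-type), Col6a4 (60.4 labelled KO and 67.3 wild-type) and Col6a5 (8.90 labelled KO and 8.61 wild-type). Col26a1 is the dim gene nearest to the floor, and its difference of 0.31 would be past 1.2-fold, while its second set differed by -0.060.

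**Figure D3:**
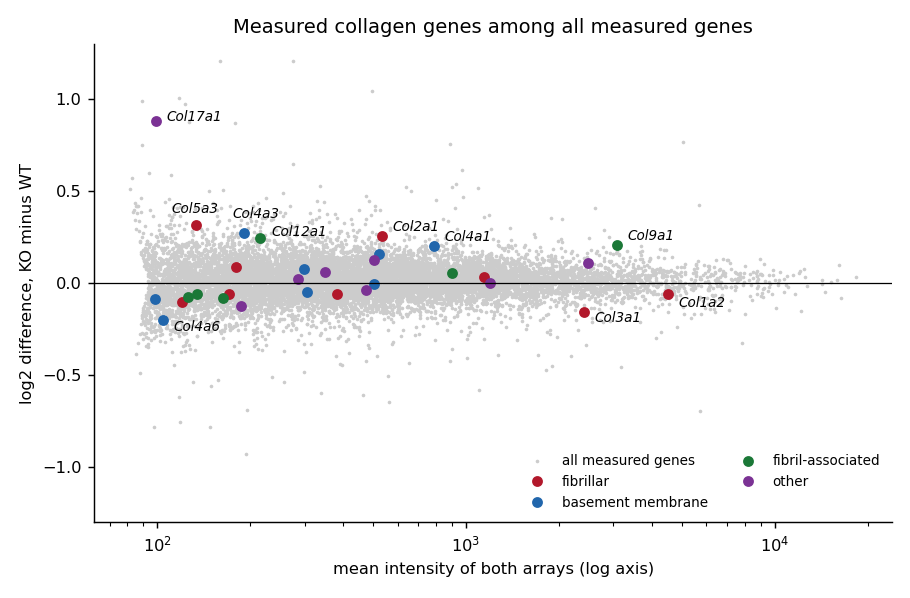
Log2 difference, KO minus WT, against the mean intensity of both arrays on a log axis, for 11568 measured genes in grey and 31 measured collagen genes coloured by class. The spread of all genes narrows to the right; Col17a1 lies at the dim end at 0.88, and Col2a1, Col4a1 and Col9a1 lie near the upper edge of the cloud at higher levels.

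The spread between the arrays depended on level, which bears on how the collagens are read. Among 2571 measured genes with a mean intensity under 200, the central 95% of log2 differences ran from -0.26 to 0.31, and of 12 collagens at this level Col17a1 and Col5a3 were outside, beside 5.06% of all such genes by construction. Among 3842 genes with a mean of 200 to 500 it ran from -0.20 to 0.24, and of 7 collagens Col12a1 was outside, just above it, beside 5.05% of all such genes. Among 5155 genes with a mean of 500 or over it ran from -0.15 to 0.18. Of the 12 collagens at that level, 4 were outside it, beside 5% of all such genes by construction: Col2a1, Col4a1 and Col9a1 above and Col3a1, at -0.16, just below. As a further scale, the SD between probe sets of 1 gene above the floor was 0.12 over 20 collagen genes and 0.089 over 5201 genes of all kinds. Probe sets of both signs were found in 8 of those 20 collagens (40.0%) and in 45.5% of the 5201 genes. Sets above the floor on 1 array only are included, such as the second of Col12a1, and the floor favours their sign. For 19 of the 31 measured collagens the difference was smaller than the SD between collagen probe sets. This count was not made over all genes. Within the narrower limit of 0.1 lay 71.3% of all measured genes, against 17 of the 31 collagens (54.8%).

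The genes that make and join collagen had medians near 0. Of the enzymes and chaperones of collagen synthesis and folding, 17 of 22 were measured, with 11 above and 6 below 0, and a median of 0.013. None of the 17 was past 1.2-fold, beside 1.79% of all measured genes higher and 1.17% lower. The prolyl hydroxylase genes P4ha1 (-0.050), P4ha2 (-0.0067) and P4hb (0.043) and the lysyl hydroxylase gene Plod1 (0.058) were near 0. The furthest from 0 were P3h2, a prolyl 3-hydroxylase (-0.18), and Colgalt1, which adds galactose to collagen (0.14). For procollagen cleavage and cross-linking 8 of 14 genes were measured, 4 above and 4 below 0, with a median of -0.013, and the lysyl oxidases Lox (-0.053) and Loxl1 (-0.087) and the proteinase Bmp1 (0.063) were among them.

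Proteoglycans that bind fibrils had a median of -0.11 over 13 measured genes of 15, with 6 above and 7 below 0. Past 1.2-fold lower were Optc, given above, and Kera, keratocan of the corneal stroma, at 183 on the array labelled KO and 227 on the wild-type array (-0.31), 2 of 13 genes beside 1.17% of all measured genes. Dcn, decorin, read 4276 labelled KO and 4770 wild-type (-0.16) and Ogn differed by -0.18, while Bgn (0.091), Lum (0.054) and Fmod (0.038) were slightly above 0. Collagen receptors had a median of 0.0010 over 6 measured genes, with Itgb1 at -0.13 and Ddr1, a collagen-binding kinase, at 0.072. Collagen breakdown had a median of -0.057 over 10 measured genes, with the membrane proteinase Mmp14 at 0.15 and Timp3, an inhibitor laid down in Bruch's membrane, at -0.12. Genes of TGF-beta signalling, which drives collagen transcription in many cells, had 8 above and 7 below 0 and a median of 0.017, with Tgfb2 at 0.12 and the responsive genes Skil at 0.20 and Ccn2 at -0.18.

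**Figure D4:**
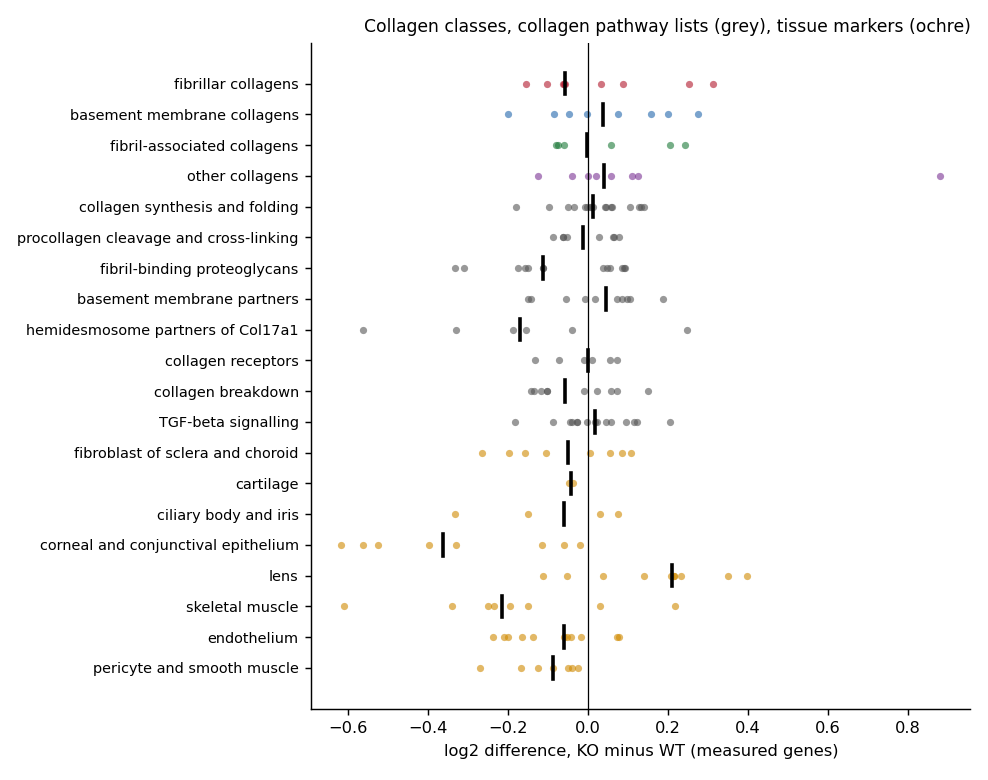
Log2 difference, KO minus WT, of each measured gene (points) and the median (black bar) in the 4 collagen classes, the collagen pathway lists in grey and tissue marker lists in ochre. The collagen classes have medians from -0.059 to 0.039, whereas corneal epithelium (-0.36), skeletal muscle (-0.22) and lens (0.21) lie further from 0.

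The eye cup was present by its markers: 7 of 8 pigment epithelium genes and all 6 rod genes with a probe set were measured. So were 8 of 12 scleral and choroidal fibroblast genes, whose median was -0.050. The measured pigment epithelium genes had a median of -0.10, with 1 above and 6 below 0. Of these, 3 were at least 1.2-fold lower, beside 1.17% of all measured genes. Medians were -0.14 over 8 melanocyte genes, -0.088 over 7 pericyte and smooth muscle genes and -0.060 over 11 endothelial genes. The rod genes had a median of -0.036. Markers of tissues the dissection removes were also measured, with 8 corneal genes, Pax6 among them, and 10 lens genes, crystallins apart from Bfsp2. The lens genes Bfsp1 (71.1 labelled KO and 67.3 wild-type), Lim2 (59.7 and 58.8 in the same order) and Mip (30.4 and 26.7) were below the floor. The pools differed in sex-linked transcripts, with Xist at 4357 on the array labelled KO and 7055 on the wild-type array, and Uty at 157 labelled KO and 78.2 wild-type. The ratio of 3' to 5' signal was 1.44 on the array labelled KO and 1.49 on the wild-type array for beta-actin, and 0.942 and 0.973 in the same order for Gapdh. The part of these differences in the collagen values was not tested.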

How the data were processed

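The authors deposited an intensity for 45101 probe sets on each of 2 arrays, made with Partek 6.6 and RMA, per the submitters' processing notes, which give no order or settings. RMA corrects background, equalises the arrays and combines probes, and it shrinks differences of dim probe sets. The values are linear, as their range shows (5.07 to 20568 on the array labelled KO, 5.15 to 20644 on the wild-type array). Base 2 logarithms were taken here. Probe sets with 1 symbol in the platform annotation (34958) were assigned to genes, 64 Affymetrix controls left out, and symbols were checked by Entrez identifier against RefSeq GRCm38.p6, which changed 0.

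Genes were counted by size of difference, 1.2-fold. Any collagen could be named. Genes of other lists were drawn from the first 4 measured members and the 4 with the largest absolute difference. Itgb4, Pax6, Bfsp1, Bfsp2, Lim2 and Mip were named outside this rule, after their values were seen. Members and lists were chosen with earlier results of these data known. Depth does not apply to arrays, and their number limits precision. Python 3.11.15, numpy 2.4.6, pandas 2.3.3, statsmodels 0.14.6 and matplotlib 3.10.9 were used, and the counting was tested on simulated data. Alternatives were other sizes, other floors, the mean of probe sets, leaving out _s_at and _x_at sets, 16 added before logs and removal of a loess trend (span 0.3, 3 iterations). Added after seeing the data were a floor on both arrays, subtraction of the overall median and the probe set with the second highest mean.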

Additional observations from a re-analysis of the deposited data

How the results depend on the processing

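No paired analysis was possible because there is only 1 array a genotype. The count of 3 collagens at least 1.2-fold higher became 0 under a floor at the 70th percentile, 1 with probe sets averaged, 1 at 1.3-fold, 1 at 1.5-fold and 0 at 2-fold. Dropping the floor gave 4. Loess removal, 16 added before logs and subtraction of the overall median each gave 2 (Col4a3 lost, at 0.26, 0.25 and 0.26), as did a floor on both arrays (Col17a1 lost). The count of 0 lower became 1 with no floor (Col19a1) and 1 without _s_at and _x_at sets (Col20a1). That set of Col20a1 reached the floor only on the wild-type array. The median of fibril-associated collagens, -0.0024, became 0.13 under the floor at the 70th percentile and 0.14 with probe sets averaged, which both leave fewer genes. With the second probe set in place of the chosen one 8 collagens changed sign: Col5a3 (to -0.024), Col12a1 (to -0.16), Col5a1, Col25a1, Col1a1, Col4a4, Col4a5 and Col6a2. In that setting the floor was not applied, and the second sets of Col5a3, Col4a6 and Col27a1 lay below it. There 14 measured collagens other than Col5a3 moved by more than 0.089, while 8 did not. This limit is the SD between probe sets above the floor over all genes. Under the floor at the 70th percentile 18 collagens were measured, and Col17a1, Col5a3 and Col4a3 were not among them. With probe sets averaged 26 were measured, without Col5a3, and Col4a3 stood at 0.15. The cause of the other changes was not tested. Removing the loess trend moved 0 of 31 collagens by more than that SD. Subtracting the overall median shifts every gene by the same 0.014, so it could move none by that much. The count changed under both as given.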

Other observations

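Collagen-like stretches also occur in proteins that are no collagens, and a list of 36 such genes was written after the collagen values were seen. Of its 14 measured members 10 were above 0, with a median of 0.11, and 3 were at least 1.2-fold higher on the array labelled KO, beside 1.79% of all measured genes. These 3 were the chains of complement C1q: C1qa, C1qb (426 on the array labelled KO and 328 on the wild-type array, a log2 difference of 0.37) and C1qc (262 labelled KO and 206 wild-type, 0.34). Scara5, a scavenger receptor, was the lowest member at -0.25.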
